A study of Homo sapiens with 21 samples.

Results

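The replication-dependent histone genes were taken as the rows of the count table whose NCBI symbol, found through the Entrez identifier, belongs to H1-1 to H1-6 or to the H2AC, H2BC, H3C and H4C series. Of the 28395 genes in the table, 69 met this rule (6 H1, 17 H2A, 18 H2B, 13 H3 and 15 H4 genes), and 0 pseudogenes matched it. On chromosome 6 lie 55 of them, on chromosome 1 lie 13 and on chromosome 12 lies 1. The RNA came from Hs578T, a line derived from a triple-negative breast tumour, collected 8 h after treatment. There were 7 groups of 3 libraries. Cells received the solvent DMSO alone, the low dose of THZ531 at 0.1 µM, its high dose at 1 µM, lapatinib at 3.16 µM, nilotinib at 1 µM, or either of these tyrosine kinase inhibitors together with the low dose (the lapatinib combination and the nilotinib combination). THZ531 blocks the transcriptional kinases CDK12 and CDK13, which act on elongating RNA polymerase II. All groups are of 1 cell line at 1 time point.

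Replication-dependent histone genes encode the core histones and linker histones that package newly copied DNA, and they are transcribed mainly in S phase. Their mRNAs are the known exception to polyadenylation, because they end in a short stem-loop that is bound by the stem-loop binding protein SLBP after cleavage directed by the U7 small nuclear ribonucleoprotein. Most of the genes have no introns and sit in clusters, often as H2A and H2B pairs that are read in opposite directions from a shared start region. The libraries were polyA-selected and unstranded, so the counts report histone transcripts recovered by polyA selection and not the whole pool of histone mRNA. In these bulk libraries, more transcripts per cell and a larger polyadenylated share of the same transcripts cannot be told apart, nor can a larger share of cells in S phase.

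The stem-loop is printed here because it is the feature that sets these mRNAs apart. A pattern that covers the stem-loop forms named below was searched on the sense strand in the 100 bases after the stop codon in GRCh38. Its 16 bases begin with GGNNCTT, where N is any base. After any base, a T and any base they end with AGNGCC. It was found in 69 of 69 histone genes and in 3 of 19787 other protein-coding genes, which were H2AX, H3-4 and H3-7. Because the pattern allows each form seen in these histone genes, the 69 of 69 is not a test. The pattern was present in 0.363% of all 19856 genes searched. The motif began 22 to 67 bases after the stop codon (median 35). Of its 10 forms, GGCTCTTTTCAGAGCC occurred in 40 histone genes, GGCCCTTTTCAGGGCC in 10 and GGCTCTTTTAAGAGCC in 9. Capitals mark the 16 bases of the motif in the genes described below, on the sense strand.
H1-2 (chr6:26055739-26055764, minus strand): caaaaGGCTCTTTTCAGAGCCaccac
H2AC20 (chr1:149887386-149887411, plus strand): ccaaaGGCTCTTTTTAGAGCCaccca
H2AC17 (chr6:27892699-27892724, minus strand): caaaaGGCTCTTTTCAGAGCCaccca
H2BC17 (chr6:27893865-27893890, plus strand): ccaaaGGCTCTTTTCAGAGCCactca
H2BC12 (chr6:27146361-27146386, minus strand): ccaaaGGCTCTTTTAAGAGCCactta
H3C1 (chr6:26020927-26020952, plus strand): gcaaaGGCTCTTTTCAGAGCCaccac
H4C3 (chr6:26104312-26104337, plus strand): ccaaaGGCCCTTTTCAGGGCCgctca
The polyadenylation hexamer AATAAA was found within 1000 bases after the stop codon in 32 of 69 histone genes (46.4%) and in 62.0% of all genes searched.

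Short motifs were also frequent in the start regions of the histone genes, but not in every family. RefSeq promoter windows of 250 bases before to 50 bases after the start (GRCh38) were matched for 64 of the 69 genes, as 68 windows, and were searched on both strands. TATAAA was found in 66.2% of these windows and in 11.5% of all 35116 promoter windows, and CCAAT in 85.3% against 34.6%. By family, CCAAT was in 100% of the H1, H2A, H2B and H3 windows but in 3 of 13 H4 windows (23.1%). ATTTGCAT, the octamer bound by OCT1, was in 39.7% of the histone windows against 1.77% of all. It was in 68.8% of the H2A and 75% of the H2B windows, but in 0 of 6 H1, 1 of 13 H3 and 0 of 13 H4 windows. The start region between H2AC17 and H2BC17 is printed because both genes were among those with the largest changes. It has 239 bases on GRCh38, and capitals mark the same 3 motifs, read on either strand.
H2AC17/H2BC17 (chr6:27893186-27893424, plus strand): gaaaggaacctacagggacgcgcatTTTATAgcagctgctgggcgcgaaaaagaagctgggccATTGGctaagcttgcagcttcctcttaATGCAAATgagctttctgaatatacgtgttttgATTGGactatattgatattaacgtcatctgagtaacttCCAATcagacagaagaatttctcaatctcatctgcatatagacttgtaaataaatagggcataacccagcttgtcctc
A match is a run of letters and was not tested for binding. The windows of paired H2A and H2B genes overlap, so 1 match can count for both genes and their percentages are not independent.

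Total counts per library lay between 97612207 and 112229052 (median 104639800), and 16036 genes passed the count filter and were tested. The line was checked against its markers. The mesenchymal genes VIM (6845 CPM in DMSO, counts scaled to a common library total), FN1 (1374) and CD44 (1412) were high. PGR was at 0 in the DMSO libraries, and ESR1 (0.364 CPM), EPCAM (0.0364) and CDH1 (0.205) were near it, while ERBB2 (37.5) and KRT8 (20.8) were not. The study describes the RNA samples as derived in separate experiments, while the labels give replicate numbers only.

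Of the 69 histone genes, 39 passed the count filter (3 H1, 9 H2A, 12 H2B, 9 H3 and 6 H4 genes). The filter, edgeR's filterByExpr at a minimum of 10 counts, keeps a gene that reaches the level in 3 libraries of any group. Of these 39 genes, 19 reached it in the 3 DMSO libraries alone, and the other 20 needed libraries of another group as well. Because a gene that passes through a group where it is high tends to differ there, counts are given for both sets. The 30 genes that did not pass had at most 15 counts in any library, and 7 of them (H1-5, H2AC1, H2AC16, H3C11, H4C6, H4C7 and H4C13) had 0 counts in all 21 libraries. Together these 30 genes had 35 to 49 counts per DMSO library, 42 to 59 with the lapatinib combination, 46 to 56 with the nilotinib combination and 48 to 65 with 1 µM THZ531. Their sums were 39 to 47 with 0.1 µM THZ531, 21 to 50 with lapatinib and 17 to 47 with nilotinib. They were not tested further.

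The histone counts were few and uneven. H2BC12, H2BC9, H1-2 and H2AC20 held 65.8% of all counts of the 69 genes, and 26 of the 39 tested genes stayed below 100 counts in every library. Levels between genes were compared per kilobase of the longest GENCODE transcript. On this scale H2BC12 was highest in DMSO (20.4 CPM per kilobase), followed by H2BC9 (11.2), H2AC20 (4.61) and H1-2 (3.86). H3C3 (0.971), H4C3 (0.611), H2AC6 (0.403), H4C5 (0.361), H3C1 (0.264) and H1-4 (0.191) were lower. H2BC12 has a RefSeq gene model of 8566 bases, much longer than its stem-loop form, and it overlaps H4C9 on the other strand, so its reads cannot be assigned to 1 form or strand. Its level per kilobase uses a GENCODE transcript of 495 bases, so it is too high if reads of the longer model were counted. H2BC18, H2BC5 and H3C4 were the other tested genes that overlap another RefSeq gene. Near-identical copies are common in these families, and how reads shared between copies were counted is not given in the sources used here.

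The summed level of the 69 genes separated the 7 groups into a low and a high set. It was 26.5 to 29.6 CPM in the DMSO libraries, 27.8 to 30.1 with 0.1 µM THZ531, 26.7 to 29.8 with lapatinib and 26.8 to 27.5 with nilotinib. It was 54.8 to 62.9 CPM with the lapatinib combination, 48.1 to 53.0 with the nilotinib combination, and 53.6 to 62.0 with 1 µM THZ531. The 9 libraries of these 3 groups did not overlap the other 12. In raw counts the sums were 3288 to 3484 in DMSO and 5007 to 5760, 4377 to 4903 and 5103 to 5922 in the same 3 groups.

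**Figure D1:**
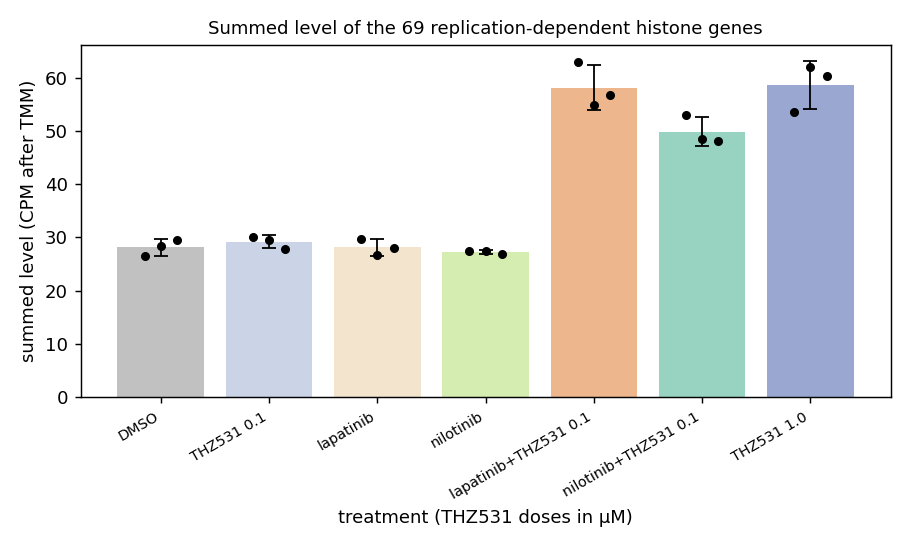
Summed level (y axis, CPM after TMM normalization, from 0) of the 69 replication-dependent histone genes in each of the 7 groups (x axis). Points are libraries, bars the mean and error bars the SD of 3 libraries; the 3 groups on the right lie at 48.1 to 62.9 CPM and the other 4 at 26.5 to 30.1 CPM.

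With 0.1 µM THZ531, lapatinib alone or nilotinib alone, at most 1 of the tested histone genes was called. With edgeR's quasi-likelihood test and Benjamini-Hochberg adjustment over all 16036 genes, 0.1 µM THZ531 raised 1 of the 39 genes (1.78% of all genes were higher) and lowered 0 (4.31% were lower). DESeq2 also called 1 higher and 0 lower, and 4 genes had an unadjusted edgeR p under 0.05. Lapatinib raised 0 (0.256% of all genes) and lowered 0 (0.0561%), with 1 gene at an unadjusted p under 0.05. Nilotinib raised 0 (0.243%) and lowered 0 (0.0998%), with 8 genes at an unadjusted p under 0.05. DESeq2 called 0 for either inhibitor in either direction. The median log2 fold change of the 39 genes was 0.17 with 0.1 µM THZ531, -0.05 with lapatinib and -0.03 with nilotinib, beside 0.01, -0.01 and -0.00 over all tested genes. The lowest nilotinib values, of H3C13 and H4C1, come from genes with 0 counts in the 3 nilotinib libraries and at most 6 counts in a DMSO library, and they are not read as folds.

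The 1 gene called with 0.1 µM THZ531 was H3C1, which encodes a replication-dependent H3 and did not pass the filter in DMSO alone. Its DMSO libraries were at 0.137, 0.0863 and 0.179 CPM and its 0.1 µM THZ531 libraries at 0.302, 0.227 and 0.256 CPM. The 2 groups did not overlap, and the log2 fold change was 0.96 ± 0.28 (SE; adjusted p = 0.0462, edgeR). The call was lost under library-size, upper-quartile and mitochondrial scaling, without a filter and in other alternatives, and when DMSO replicate 2 was left out (0.73, adjusted p = 0.206, edgeR).

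The 3 other treatments raised most of the tested histone genes and lowered 0 of them. The lapatinib combination raised 30 of 39 (34.3% of all genes were higher and 37.8% lower), the nilotinib combination raised 26 (33.7% higher and 37.3% lower), and 1 µM THZ531 raised 32 (33.1% higher and 36.8% lower). The median log2 fold changes of the 39 genes were 1.31, 1.17 and 1.56, beside -0.01 over all tested genes in each. For the counts of 0 lower, DESeq2 called 0 lower as well, with 30, 27 and 32 higher, and 31, 27 and 32 of the 39 genes had an unadjusted edgeR p under 0.05 in either direction. Called with a log2 fold change above 1 were 24, 19 and 25 of the 39 genes, against 1267, 1048 and 925 of the 16036. These 3 comparisons share the DMSO libraries. In 23 of the 39 genes all 3 treatments gave a higher call, as in 27.2% of all tested genes, and 0 were lower in all 3, against 30.8% of all genes. H1-3, H2BC11, H2BC13 and H4C11 were called in none of them. In 28, 27 and 34 of the 39 genes all 3 treated libraries lay above all 3 DMSO libraries, and in 0 they lay below. Of all tested genes 34.8%, 34.6% and 34.4% lay wholly above and 38.6%, 38.3% and 37.8% wholly below.

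Among the 19 genes that passed the filter in DMSO alone, 17, 13 and 17 were higher in the same order of treatments and 0 were lower, with median log2 fold changes of 1.08, 0.81 and 1.23. Of all 14405 genes that passed in DMSO, 34.2%, 33.7% and 33.0% were higher and 41.4%, 40.8% and 40.5% lower. The other 20 histone genes gave 13, 13 and 15 higher and 0 lower calls, with medians of 1.64, 1.51 and 1.86. All tested genes had 5500, 5407 and 5301 higher calls, of which 4922, 4861 and 4755 were of genes that passed in DMSO. They had 6064, 5974 and 5902 lower calls, of which 5964, 5881 and 5832 were of such genes. Few lower calls came from genes that needed another group, so 0 lower among these 20 says little. Among the 19 genes that did not owe their place to a treated group the direction was the same, with smaller medians.

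**Figure D2:**
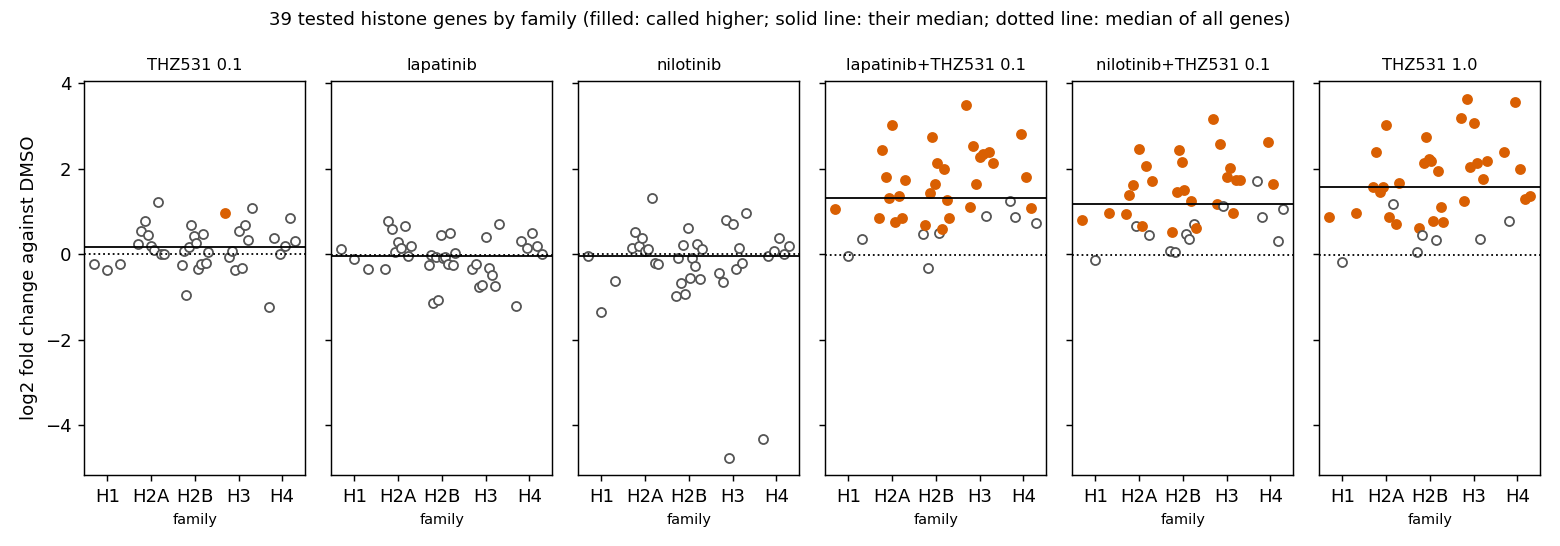
Log2 fold change against DMSO (y axis) of the 39 tested histone genes by family (x axis) in 6 panels, 1 per treatment (THZ531 doses in µM). Filled points were called higher (1, 0, 0, 30, 26 and 32 from left to right); the solid line is the median of the 39 genes (from -0.05 with lapatinib to 1.56 with 1 µM THZ531) and the dotted line that of all tested genes. The 2 lowest nilotinib points are H3C13 and H4C1, which had 0 counts there.

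How the libraries are scaled sets where zero lies, and it changed the number of calls. TMM assumes that most genes do not change. Scaling to library size alone moved the median of all genes to -0.34, -0.31 and -0.27 in the 3 treatments, upper-quartile scaling to 0.15, 0.13 and 0.19, and scaling to the 13 mitochondrially encoded mRNAs, which RNA polymerase II does not transcribe, to -0.69, -0.63 and -0.55. The median of the histone genes less that of all genes was 1.32, 1.19 and 1.57 with TMM and 1.35, 1.18 and 1.58 with mitochondrial scaling. A change of scaling shifts all genes nearly alike, so this difference was bound to stay almost the same and is no test of the scaling. With mitochondrial scaling 14, 12 and 18 histone genes were higher and 0 lower, against 5.30%, 4.83% and 4.35% of all genes higher and 58.4%, 55.9% and 52.5% lower. Library-size scaling gave 23, 20 and 27 higher and upper-quartile scaling 32, 31 and 33, each with 0 lower.

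The linker histones H1, which bind the DNA between nucleosomes, gave 1, 2 and 2 higher calls among 3 tested genes, where 34.3%, 33.7% and 33.1% of all genes were higher, so the count with the lapatinib combination is near that of all genes. H1-2 had libraries at 2.94, 2.50 and 3.02 CPM in DMSO, 6.04, 5.79 and 5.67 with the lapatinib combination, 5.26, 5.01 and 4.59 with the nilotinib combination, and 5.35, 5.45 and 4.62 with 1 µM THZ531. The 9 treated libraries all lay above the DMSO libraries, and those with 0.1 µM THZ531, lapatinib alone or nilotinib alone lay between 2.13 and 3.19 CPM. Its log2 fold changes were 1.05 ± 0.10, 0.81 ± 0.10 and 0.86 ± 0.10 (SE; adjusted p = 1.85e-08, 7.35e-07 and 3.41e-07, edgeR). With mitochondrial scaling the second and the last of these calls were lost (log2 fold changes 0.19 and 0.31).

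H1-4 was low, at 0.177, 0.0604 and 0.213 CPM in DMSO, 0.164, 0.197 and 0.223 with the lapatinib combination, 0.302, 0.303 and 0.275 with the nilotinib combination and 0.304, 0.304 and 0.278 with 1 µM THZ531. It was called with the nilotinib combination (log2 fold change 0.96 ± 0.34, adjusted p = 0.0174, edgeR) and with 1 µM THZ531 (0.97 ± 0.34, adjusted p = 0.0164, edgeR). Both calls were lost without DMSO replicate 2 (0.59 and 0.60), and under library-size and mitochondrial scaling and in the fit of only the groups compared. With the lapatinib combination its value was 0.37 and overlapped DMSO. H1-3 had values of -0.05, -0.14 and -0.18. Neither H1-4 nor H1-3 passed the filter in DMSO alone.

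The H2A genes, which encode the histone that pairs with H2B in the nucleosome, gave 9, 7 and 8 higher calls among 9 tested genes. Among all genes 34.3%, 33.7% and 33.1% were higher. The H2A log2 fold changes ran from 0.75 to 3.03 with the lapatinib combination. H2AC4, H2AC12, H2AC13 and H2AC15 did not pass the filter in DMSO alone. H2AC17 had the largest rise of the family. Its libraries were at 0.121, 0.112 and 0.119 CPM in DMSO, 1.17, 0.864 and 0.868 with the lapatinib combination, 0.681, 0.562 and 0.726 with the nilotinib combination and 1.04, 0.953 and 0.888 with 1 µM THZ531. The libraries with 0.1 µM THZ531, lapatinib alone or nilotinib alone were at or below 0.203 CPM, below each of these 9 libraries. The changes were 8.16-fold, 5.54-fold and 8.10-fold (log2 3.03 ± 0.25, 2.47 ± 0.25 and 3.02 ± 0.25; adjusted p = 1.07e-09, 2.85e-08 and 1.53e-09, edgeR).

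H2AC20, the H2A gene with the highest level, changed less. It was at 2.1, 2.24 and 2.49 CPM in DMSO, 4.23, 3.61 and 3.66 with the lapatinib combination, 4.09, 3.60 and 3.13 with the nilotinib combination and 2.96, 4.35 and 5.18 with 1 µM THZ531. None of these 9 libraries overlapped DMSO. The log2 fold changes were 0.75 ± 0.16, 0.66 ± 0.16 and 0.87 ± 0.16 (adjusted p = 0.000239, 0.000815 and 5.38e-05, edgeR), and with mitochondrial scaling they were 0.07, 0.05 and 0.36, not called.

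H2AC6 was at 0.726, 0.466 and 0.825 CPM in DMSO, 1.35, 1.15 and 1.11 with the lapatinib combination, 1.16, 0.702 and 0.913 with the nilotinib combination and 1.04, 1.34 and 0.909 with 1 µM THZ531. It was called in the first (log2 fold change 0.84 ± 0.24, adjusted p = 0.00348, edgeR) and the last (0.70 ± 0.24, adjusted p = 0.0124, edgeR), and both were lost with library-size scaling (0.51 and 0.44) and mitochondrial scaling (0.15 for each). The last was also lost without DMSO replicate 2 (0.50) or without replicate 2 of 1 µM THZ531 (0.53). With the nilotinib combination, where the groups overlap, the value was 0.46 and became a call without DMSO replicate 3 (0.63), without replicate 2 of that group (0.62) and with upper-quartile scaling (0.60).

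**Figure D3:**
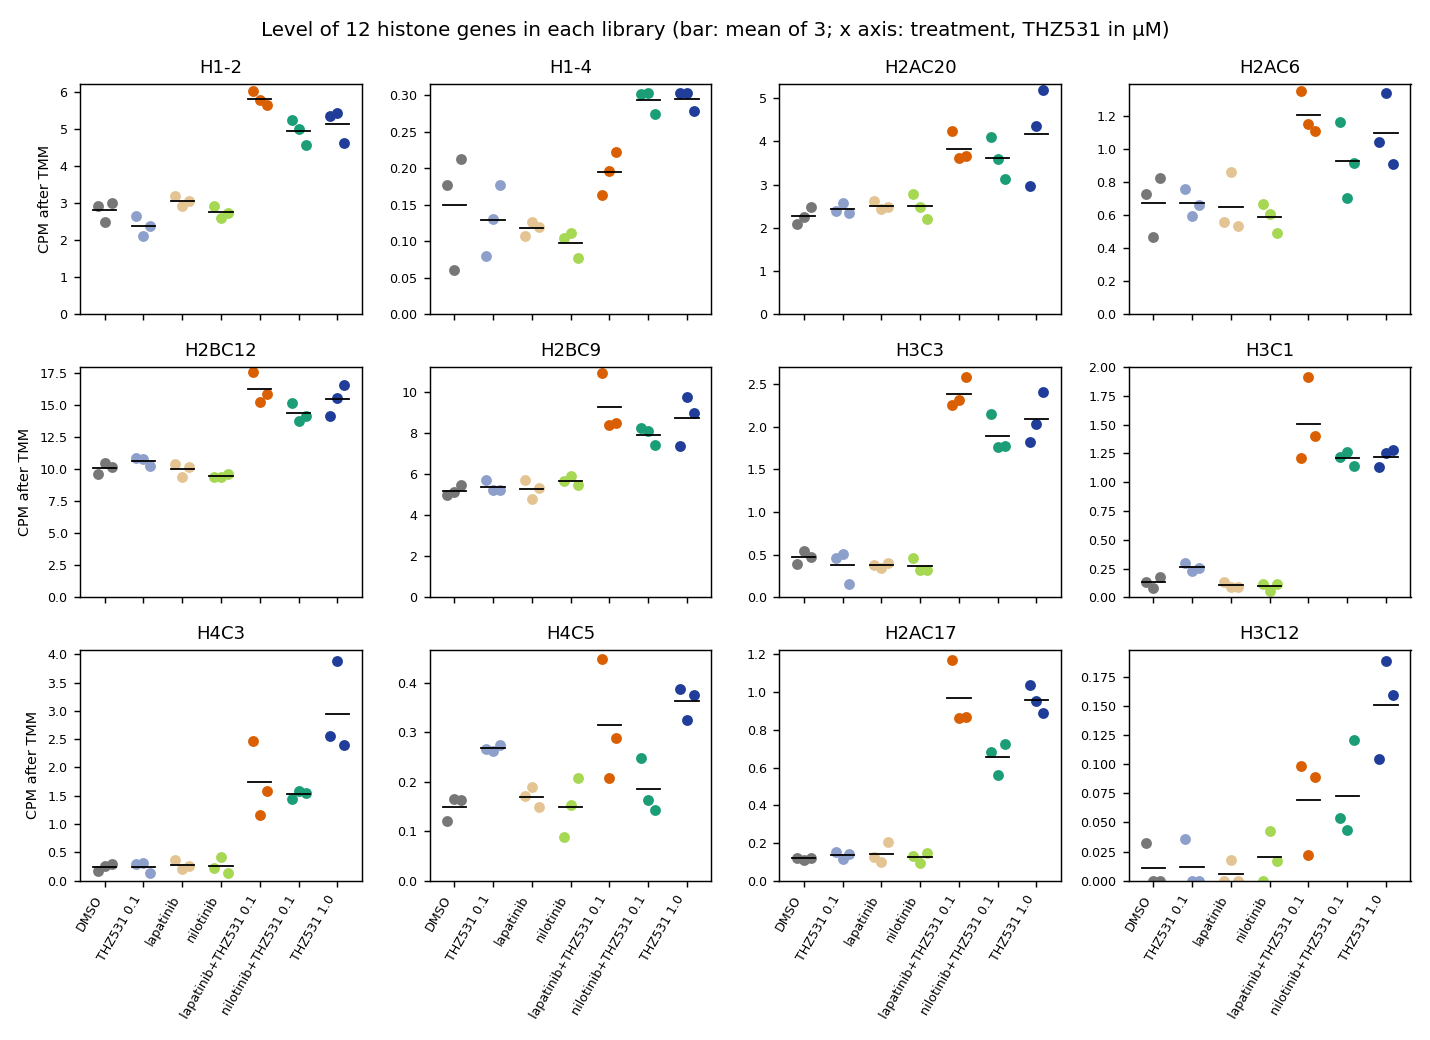
Level (y axis, CPM after TMM normalization, from 0, a scale per panel) of 12 histone genes in all 21 libraries by treatment (x axis, THZ531 doses in µM). Points are libraries and lines the mean of 3; H2AC17 and H3C3 rise by several times in all 9 libraries on the right, H2BC12 and H2BC9 by less, and H1-4, H2AC6, H4C5 and H3C12 overlap DMSO in at least 1 of these groups.

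The H2B genes gave 9, 7 and 9 higher calls among 12 tested genes, where 34.3%, 33.7% and 33.1% of all genes were higher. H2BC7, H2BC13, H2BC17 and H2BC18 did not pass the filter in DMSO alone. H2BC12, the highest of all histone genes here, was at 9.67, 10.5 and 10.2 CPM in DMSO, 17.6, 15.3 and 15.9 with the lapatinib combination, 15.2, 13.8 and 14.2 with the nilotinib combination and 14.2, 15.6 and 16.6 with 1 µM THZ531. The 4 ranges show DMSO below every library of the other 3 groups. Its log2 fold changes of 0.68 ± 0.08, 0.51 ± 0.08 and 0.61 ± 0.08 (adjusted p = 9.52e-08, 5.38e-06 and 5.40e-07, edgeR) became 0.00, -0.11 and 0.08 with mitochondrial scaling, none called.

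H2BC9 was at 5.0, 5.11 and 5.44 CPM in DMSO, 10.9, 8.38 and 8.48 with the lapatinib combination, 8.22, 8.07 and 7.43 with the nilotinib combination and 7.37, 9.76 and 8.95 with 1 µM THZ531, again without overlap. The log2 fold changes were 0.84 ± 0.11, 0.61 ± 0.11 and 0.75 ± 0.11 (adjusted p = 1.11e-06, 5.96e-05 and 5.75e-06, edgeR), and with mitochondrial scaling 0.16, -0.01 and 0.22, not called. The largest value with the lapatinib combination in the family was that of H2BC17, a gene with a low level, named after its values were seen, as the partner of H2AC17. It was at 0.0968, 0.0518 and 0.0851 CPM in DMSO and at 0.612, 0.449 and 0.523 with the lapatinib combination. Its log2 fold changes were 2.74, 2.43 and 2.75, each called, but H2BC17 needed libraries of another group to pass the filter. H2BC11 and H2BC13 had values between -0.33 and 0.46 and were not called.

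Paired genes that share a start region were set side by side. Of 12 H2A and H2B pairs with starts at most 300 bases apart and opposite directions, 8 had both genes tested. Both genes were higher in 5 pairs with the lapatinib combination, 3 with the nilotinib combination and 6 with 1 µM THZ531. In 3, 4 and 2 pairs only 1 gene was called. Among all single genes 34.3%, 33.7% and 33.1% were higher. The called gene was H2AC6, H2AC11 or H2AC13 with the lapatinib combination, and H2AC11 or H2AC13 with 1 µM THZ531. With the nilotinib combination it was H2AC8, H2AC11 or H2AC13, but in 1 pair the H2B gene (H2BC15 1.45, H2AC15 0.66). The difference within a pair was not tested. In the H2BC13 and H2AC13 pair, where neither gene passed the filter in DMSO alone, the values with the lapatinib combination were -0.33 and 1.80. In the pair printed above, H2AC17 and H2BC17, they were 3.03 and 2.74.

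The H3 genes, whose product forms the core tetramer with H4, gave 8 higher calls of 9 in each of the 3 treatments. Among all genes 34.3%, 33.7% and 33.1% were higher. The H3 family also had the highest median with the lapatinib combination (2.28). Of the tested H3 genes only H3C2, H3C3 and H3C10 passed the filter in DMSO alone. The count and the median thus rest largely on genes that needed another group to pass. H3C1 was at 1.21, 1.91 and 1.40 CPM with the lapatinib combination, 1.22, 1.26 and 1.14 with the nilotinib combination and 1.13, 1.25 and 1.28 with 1 µM THZ531, against the DMSO values of 0.137, 0.0863 and 0.179 given above. These are 11.2-fold, 8.94-fold and 9.03-fold changes (log2 3.48 ± 0.26, 3.16 ± 0.26 and 3.17 ± 0.26; adjusted p = 2.25e-10, 1.08e-09 and 1.30e-09, edgeR). The treated libraries lay far above the DMSO libraries and above those with 0.1 µM THZ531. H3C1 needed libraries of another group to pass the filter, and such a gene tends to differ there.

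H3C3, the H3 gene with the highest level, was at 0.395, 0.544 and 0.476 CPM in DMSO, 2.25, 2.31 and 2.58 with the lapatinib combination, 2.15, 1.76 and 1.77 with the nilotinib combination and 1.82, 2.03 and 2.41 with 1 µM THZ531. Its libraries with 0.1 µM THZ531, lapatinib alone or nilotinib alone, at 0.159 to 0.506 CPM, did not exceed the highest DMSO library. The changes were 5.04-fold, 4.01-fold and 4.42-fold (adjusted p = 8.99e-08, 7.97e-07 and 3.56e-07, edgeR).

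H3C12 had few reads and did not pass the filter in DMSO alone. Its counts were 4, 0 and 0 in DMSO, 9, 2 and 8 with the lapatinib combination, 5, 4 and 11 with the nilotinib combination and 10, 18 and 15 with 1 µM THZ531. It was called in each (adjusted p = 0.042, 0.0371 and 0.00234, edgeR), and no fold is given, since the DMSO group rests on 4 counts. The first 2 calls were lost without DMSO replicate 2 (adjusted p = 0.122 and 0.111, edgeR) or replicate 3 (0.124 and 0.113). They were also lost without replicate 3 of the combination itself, and the lapatinib one without its replicate 1.

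The H4 genes gave 3, 2 and 5 higher calls among 6 tested genes, where 34.3%, 33.7% and 33.1% of all genes were higher. The count with the nilotinib combination is thus near that of all genes. Of the tested H4 genes only H4C3 and H4C5 passed the filter in DMSO alone. H4C3, with the family's highest level, was at 0.177, 0.267 and 0.298 CPM in DMSO, 2.47, 1.16 and 1.59 with the lapatinib combination, 1.44, 1.59 and 1.54 with the nilotinib combination and 2.55, 3.89 and 2.39 with 1 µM THZ531. All 9 libraries were far above DMSO. The changes were 7.02-fold, 6.14-fold and 11.9-fold (log2 2.81 ± 0.36, 2.62 ± 0.36 and 3.57 ± 0.36; adjusted p = 7.66e-07, 2.17e-06 and 3.48e-08, edgeR).

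H4C5 was at 0.121, 0.164 and 0.162 CPM in DMSO, 0.448, 0.208 and 0.289 with the lapatinib combination, 0.248, 0.162 and 0.143 with the nilotinib combination and 0.388, 0.325 and 0.374 with 1 µM THZ531. It was called in the first (log2 fold change 1.08 ± 0.32, adjusted p = 0.00546, edgeR) and the last (1.28 ± 0.32, adjusted p = 0.00137, edgeR). The first was lost without replicate 1 of lapatinib with THZ531 (0.74), and both with mitochondrial scaling (0.41 and 0.74). With the nilotinib combination the value was 0.31 and the groups overlapped. With 0.1 µM THZ531 its libraries, at 0.266, 0.262 and 0.274 CPM, lay above DMSO, but the log2 fold change of 0.84 was not called (adjusted p = 0.139, edgeR).

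**Figure D4:**
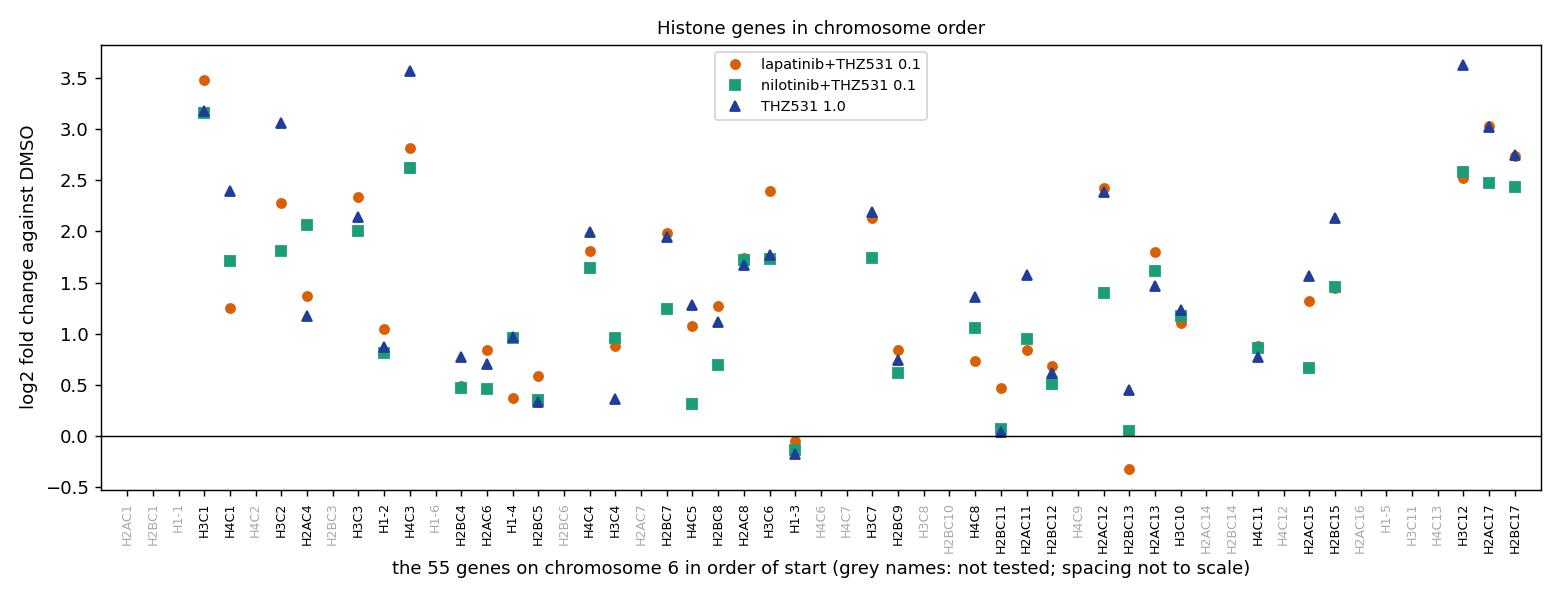
Log2 fold change against DMSO (y axis) of the 35 tested histone genes on chromosome 6 in 3 treatments (symbols), placed in order of their start among all 55 genes there (x axis, spacing not to scale, untested genes in grey). The lowest value is -0.33 (H2BC13), H3C1 near the left end lies at 3.16 to 3.48, and H2AC17 near the right end at 2.47 to 3.03; the H3C12 values rest on 4 DMSO counts.

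Genes were also grouped by position and gene model. The 35 tested genes on chromosome 6 gave 26, 23 and 28 higher calls and the 4 on chromosome 1 gave 4, 3 and 4. Among all genes 34.3%, 33.7% and 33.1% were higher, which stands beside each count in this paragraph. Genes with a RefSeq span or GENCODE transcript longer than 1000 bases were 11 of the 39. Such a model can hold a polyadenylated form beyond the stem-loop, but not in every case, since the RefSeq span of H3C4 ends at its stem-loop. These 11 genes gave 8, 7 and 9 higher calls with medians of 0.88, 1.06 and 1.23. The 28 others gave 22, 19 and 23 with medians of 1.51, 1.32 and 1.62. With AATAAA within 1000 bases after the stop codon there were 19 tested genes, of which 16, 11 and 15 were higher (medians 1.25, 1.13 and 1.56). Without it there were 20, of which 14, 15 and 17 were higher (medians 1.54, 1.32 and 1.62). The 35 tested genes that overlap no other RefSeq gene gave 27, 23 and 30 higher calls.

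The next question was whether the combinations, which hold 0.1 µM THZ531, gave more than their parts. Each combination was compared with its inhibitor, and this difference with that of 0.1 µM THZ531 against DMSO, as an interaction in the same edgeR fit. For lapatinib 20 of 39 histone genes had a higher value than the parts add up to (28.2% of all genes) and 0 a lower one (32.0%), and for nilotinib 18 were higher (25.6%) and 0 lower (31.2%). In DESeq2 these counts were 21 and 18 higher and 0 lower, and 22 and 20 of the 39 genes had an unadjusted edgeR p under 0.05 in either direction. Mitochondrial scaling left 8 and 11 higher, against 594 and 593 of all 16036 genes. The median interaction was 1.04 and 1.08 on the log2 scale, beside 0.03 over all genes in each. Among the genes that passed in DMSO alone it was higher in 15 and 13 of 19, against 28.9% and 26.4% of such genes. H3C3 had interactions of 2.97 ± 0.38 and 2.68 ± 0.38 (adjusted p = 1.40e-06 and 5.88e-06, edgeR), H2AC17 of 2.55 ± 0.38 and 2.19 ± 0.38 (adjusted p = 8.35e-06 and 6.17e-05, edgeR) and H2BC12 of 0.62 ± 0.11 and 0.52 ± 0.11 (adjusted p = 5.08e-05 and 0.000326, edgeR).

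The combinations were also compared with THZ531 at 1 µM. With the lapatinib combination, 2 of 39 histone genes were lower than with 1 µM THZ531 (16.1% of all genes) and 0 were higher (12.8%), and the median difference was -0.01. The lower ones were H2AC11 (log2 difference -0.73, adjusted p = 0.0266, edgeR) and H2BC15 (-0.69, adjusted p = 0.0381, edgeR). With the nilotinib combination, 5 were lower (13.0%) and 0 higher (11.2%), and the median difference was -0.30. They were H2BC21 (-0.68), H3C2 (-1.25), H4C3 (-0.95), H4C5 (-0.97) and H2BC15 (-0.68). H3C2, for example, was at 0.605, 0.551 and 0.264 CPM with the nilotinib combination and at 1.05, 1.18 and 1.16 with 1 µM THZ531, without overlap. DESeq2 called 3 and 5 lower and 0 higher, and 4 and 9 genes had an unadjusted edgeR p under 0.05. A count near or below that of all genes does not show that the levels were equal.

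Between both combinations, 1 gene was higher with lapatinib (0.73% of all genes) and 0 were lower (0.736%), and DESeq2 gave the same counts, with 6 genes at an unadjusted edgeR p under 0.05. The gene was H2BC21, at 3.34, 3.53 and 3.86 CPM with the lapatinib combination and 2.05, 2.65 and 2.21 with the nilotinib combination (log2 difference 0.64 ± 0.15, adjusted p = 0.0379, edgeR). The call was lost with mitochondrial scaling, without a filter and in the fit of only the groups compared.

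Genes that serve histone supply were read from lists of known members. The replication-independent histone genes, which are mostly polyadenylated and expressed outside S phase, went both ways, as all tested genes did. H2AX is among them, though it has the stem-loop motif after its stop codon. Of all genes 34.3%, 33.7% and 33.1% were higher and 37.8%, 37.3% and 36.8% lower in the 3 treatments. With the lapatinib combination 6 of 12 were higher and 4 lower (median 0.29), with the nilotinib combination 6 and 5 (0.07) and with 1 µM THZ531 6 and 5 (0.18), and with mitochondrial scaling 0 were higher in each and 5, 6 and 5 lower. CENPA, the H3 variant of centromeres, fell by 1.81 on the log2 scale with the lapatinib combination, from 51.6 ± 4.11 to 14.7 ± 0.493 CPM (SD, n = 3; adjusted p = 7.30e-14, edgeR). H3-3A, which encodes H3.3, rose by 1.01, from 248 ± 16.7 to 499 ± 36.0 CPM (adjusted p = 2.01e-10, edgeR), and its value was 0.33 with mitochondrial scaling (adjusted p = 0.0506, edgeR).

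The genes of histone mRNA synthesis and 3′ processing had calls in both directions. Over all tested genes 37.8%, 37.3% and 36.8% were lower and 34.3%, 33.7% and 33.1% higher in the 3 treatments. With mitochondrial scaling 58.4%, 55.9% and 52.5% were lower and 5.30%, 4.83% and 4.35% higher. The lists are read beside these shares. Of 22 tested, 12 were lower and 6 higher with the lapatinib combination (median -0.35), 12 and 8 with the nilotinib combination (-0.24) and 12 and 6 with 1 µM THZ531 (-0.27), where mitochondrial scaling left 0 higher and made 15, 15 and 14 lower. CASP8AP2, which encodes FLASH of the cleavage complex, went from 13.1 ± 0.736 to 0.685 ± 0.232 CPM (SD, n = 3) with the lapatinib combination, a log2 fold change of -4.26 (adjusted p = 5.26e-12, edgeR). NPAT, the coactivator of histone transcription, went from 36.3 ± 2.95 to 2.86 ± 0.836 CPM (log2 -3.67, adjusted p = 8.96e-12, edgeR). CSTF2T, of the cleavage stimulation factor, changed by -2.78 (adjusted p = 6.95e-12, edgeR).

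SLBP and the U7-specific genes were named after their values were seen. SLBP had log2 fold changes of -0.41, -0.36 and -0.80 in the 3 treatments (adjusted p = 0.000547, 0.00183 and 2.14e-07, edgeR). ZNF473, a U7-associated zinc finger protein, changed by -2.30, -2.13 and -2.26. LSM11 and LSM10, of the U7 ring, changed by -1.10, -0.97 and -1.35 and by -0.74, -0.54 and -0.63, and all these values were called. Not every gene of this list fell. With the lapatinib combination and mitochondrial scaling, SNRPB, SNRPD3, SNRPE, SNRPF and SNRPG had values of -0.15, 0.05, -0.01, 0.14 and -0.21, none called. LSM11 and LSM10 had -1.78 and -1.42 there. The part of these lower levels in the histone counts was not tested.

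**Figure D5:**
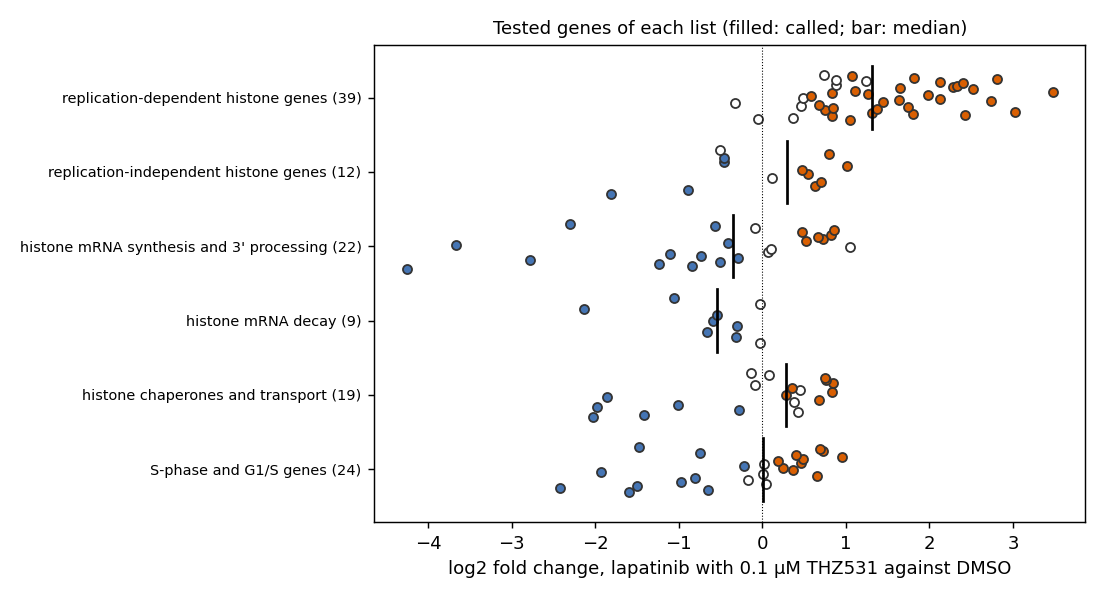
Log2 fold change with the lapatinib combination against DMSO (x axis) of the tested genes in 6 lists (y axis, number of genes in brackets). Points filled orange were called higher and blue lower, open points were not called and bars are medians; the 39 replication-dependent genes have 30 orange and 0 blue points with a median of 1.31, and the decay list has 0 orange and 7 blue with a median of -0.54.

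The histone mRNA decay genes had 7, 6 and 7 lower and 0 higher calls among 9 (medians -0.54, -0.43 and -0.44), and mitochondrial scaling, with which 58.4%, 55.9% and 52.5% of all genes were lower, made all 9 lower in each. TUT7, a uridylyltransferase, changed by -2.14 with the lapatinib combination, XRN1, the cytoplasmic 5′ to 3′ exonuclease, by -1.06 and EXOSC10, of the nuclear exosome, by -0.66. Chaperones and transport factors, like all tested genes, went both ways. Of 19, 6, 5 and 6 were lower and 7, 9 and 9 higher (medians 0.28, 0.24 and 0.22), and 0 were higher with mitochondrial scaling. With TMM 37.8%, 37.3% and 36.8% of all genes were lower and 34.3%, 33.7% and 33.1% higher. ASF1A, a chaperone of H3 and H4, changed by -2.02, CHAF1A, of the replication-coupled assembly factor, by -1.98 and HIRA, which deposits H3.3, by -1.85.

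The S-phase and G1/S genes gave calls in both directions, as all tested genes did. Of all genes 37.8%, 37.3% and 36.8% were lower and 34.3%, 33.7% and 33.1% higher. Among the 24 S-phase and G1/S genes, 10, 9 and 8 were lower and 10, 11 and 13 higher (medians 0.01, 0.02 and 0.29). Mitochondrial scaling left 0 of them higher and 16, 14 and 11 lower. CCNE2, a cyclin of the G1/S transition, changed by -2.42 with the lapatinib combination, E2F2 by -1.93 and CCNA2, the S-phase cyclin A, by -1.60, from 214 ± 13.1 to 70.7 ± 8.78 CPM (SD, n = 3). The share of cells in S phase was not measured in these files, and its part in the histone levels was not tested. The mitochondrially encoded mRNAs were higher in 13 of 13 in each treatment (medians 0.68, 0.60 and 0.58 with TMM).

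The lists were also read with 0.1 µM THZ531, lapatinib alone and nilotinib alone. With 0.1 µM THZ531, 2 of the 22 synthesis and processing genes were lower and 0 higher, and 0 genes of the other 4 lists were called, with 1 (replication-independent), 3 (decay), 2 (chaperones) and 4 (S-phase) genes at an unadjusted edgeR p under 0.05. With lapatinib or nilotinib alone 0 genes of the 5 lists were called by edgeR, with 1 to 3 genes per list at an unadjusted p under 0.05 apart from the decay list with lapatinib, which had 0. DESeq2 also called 0 with either inhibitor alone. With 0.1 µM THZ531 it called 2 S-phase genes higher and 1 chaperone gene, 1 replication-independent histone gene and 2 synthesis and processing genes lower.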

How the data were processed

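RNA-seq was done on 21 libraries (7 groups of 3) of Hs578T cells, as unstranded, polyA-selected, paired-end libraries. The authors deposited a table of read counts per gene, not normalized. The submitters' processing notes name HISAT2 (2.1.0), featureCounts, DESeq2 and GRCh38. Which gene annotation was counted, and if a read pair counted once, is not given in the sources used here. Even counts made up 61.6% to 66.4% of values among genes with 1 to 20 counts, so halved counts were an alternative. Reads of overlapping or antisense genes cannot be told apart. Of 28395 genes 27745 were named through RefSeq, with 99.98% of the counts, and 0 columns went unused. Total counts were 97612207 to 112229052 per library.

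Counts of all 21 libraries were fitted together with edgeR 4.0.16 in R 4.3.3 (TMM, filterByExpr with a minimum count of 10, quasi-likelihood test). P-values were adjusted by Benjamini-Hochberg over 16036 genes, and calls were made at 0.05, in 11 comparisons. Values in brackets after ± are standard errors of log2 fold changes unless given as SD. CPM were scaled by TMM factors. Alternatives were DESeq2 1.42.0, other scalings and filters, the replicate block, only the groups compared, and each library left out. The steps were tested on simulated data. The subset that passes in DMSO alone and the exon-union lengths were chosen after seeing the data.

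The histone genes and the lists were chosen with earlier results of these data known. Given in full were the 2 genes of each family with the highest mean CPM, and in each of the 3 treatments with many calls the 3 called genes with the largest rise whose libraries all lay beyond DMSO. No called gene fell. From each list the 3 called genes with the largest change with the lapatinib combination were named. 1 of them is not reported here.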

Additional observations from a re-analysis of the deposited data

Results flagged for a closer look

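The effect of 0.1 µM THZ531 on the tested histone genes differed with and without a tyrosine kinase inhibitor, by edgeR's interaction test. With lapatinib 20 of 39 genes had a larger effect and 0 a smaller one, and with nilotinib 18 and 0. Over all tested genes 28.2% were higher and 32.0% lower with lapatinib, and 25.6% and 31.2% with nilotinib. With mitochondrial scaling 8 and 11 histone genes were higher, against 594 and 593 of all 16036 genes. Both tests share the DMSO and 0.1 µM THZ531 libraries.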

How the results depend on the processing

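No alternative gave a histone gene a lower call in the 3 treatments with many calls, and library-size and upper-quartile scaling, DESeq2 size factors, DESeq2, no filter, halved counts and only the groups compared left their counts of higher calls within 1.5 times. Higher calls with the lapatinib combination, the nilotinib combination and 1 µM THZ531 were 14, 12 and 18 with mitochondrial scaling, 16, 13 and 16 of 18 genes with at least 10 counts in every library, and 17, 13 and 17 of the 19 genes that pass in DMSO. Fewer genes were tested in the last 2. Over all genes 5.30%, 4.83% and 4.35% were higher with mitochondrial scaling, and 37.2%, 36.6% and 36.5% with 10 counts in every library. Of the genes that pass in DMSO 34.2%, 33.7% and 33.0% were higher. The single call with 0.1 µM THZ531 became 0 under library-size, upper-quartile and mitochondrial scaling, no filter, both stricter filters, the replicate block, halved counts and only the groups compared. Against 1 µM THZ531, the lapatinib combination had 4 lower with library-size or mitochondrial scaling or halved counts, and the nilotinib combination 3 with only the groups compared. The call between the combinations became 0 with mitochondrial scaling, no filter and only the groups compared. The interactions had 8 (lapatinib) and 11 (nilotinib) higher with mitochondrial scaling, against 594 and 593 of all 16036 genes. With that scaling the nilotinib combination gave -0.11 for H2BC12 and -0.008 for H2BC9, neither called. The cause of these shifts was not tested.

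Leaving out 1 library gave 0 to 1 higher calls with 0.1 µM THZ531, 25 to 31 with the lapatinib combination, 22 to 27 with the nilotinib combination, 29 to 32 with 1 µM THZ531, and 15 to 21 and 14 to 19 for the interactions. It gave 0 to 3 and 2 to 6 lower calls for the combinations against 1 µM THZ531 and 0 to 1 between them. The count against 1 µM THZ531 became 0 without replicate 2 or 3 of the lapatinib combination or replicate 2 of 1 µM THZ531, and 1 without its replicate 1 or 3. For the nilotinib combination it became 2 without its replicate 2 and 3 without its replicate 3 or replicate 2 or 3 of 1 µM THZ531. The call between the combinations was lost without replicate 2 or 3 of the lapatinib combination, 1 or 3 of the nilotinib combination, 1 of 0.1 µM THZ531 or 2 of nilotinib. The H3C1 call with 0.1 µM THZ531 held only without DMSO replicate 3, lapatinib replicate 1, replicate 1 or 2 of the lapatinib combination, nilotinib replicate 2 or replicate 2 of 1 µM THZ531.

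Under the replicate block the 3 treatments had 28, 26 and 32 higher calls and the interactions 20 and 18. The numbers were not shown to pair the libraries: over 8794 genes, deviations of 63 same-number pairs correlated at -0.83 to 0.89 (mean 0.15), with 36 above 0.1, and 126 other pairs averaged -0.07. The alternative with RefSeq exon lengths was not run. Low counts limit most of the 39 genes, and 30 histone genes could not be tested at this depth.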
